A study of Mus musculus with 24 samples.

Results

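The immediate-early and heat-shock genes that respond within minutes to stress, 10 of the 39056 genes in the count table, were followed across all 24 RNA-seq libraries of sorted mouse ileum cells. They were taken as a fixed list of names, before any filter on level, and comprised 8 immediate-early genes (Fos, Fosb, Jun, Junb, Egr1, Ier2, Atf3 and Dusp1) and 2 heat-shock genes (Hspa1a and Hspa1b). RNA had been sequenced from live CD45+ cells, which are hematopoietic, and live CD45- cells, which are the remaining epithelial, endothelial and stromal cells. The 4 genotypes were Hoil1+/+ Il4ra flox/flox, Hoil1+/+ Il4ra flox/flox Vil1cre, Hoil1-/- Il4ra flox/flox and Hoil1-/- Il4ra flox/flox Vil1cre, with 3 libraries for each genotype and fraction. Every mouse was on the C57BL/6 background (C57BL/6 J in the study's methods), carried floxed Il4ra alleles and was 9.0 to 10.3 weeks old. The mice without Cre, called f/f here, keep Il4ra. Those with Vil1cre, called ΔIEC, express Cre under the villin promoter and lose Il4ra in intestinal epithelial cells (IECs). The Hoil1-/- allele is a model of partial deficiency and not of complete loss of the HOIL1 protein, since complete loss is lethal in mouse embryos. The labels do not tie the CD45+ and CD45- libraries to individual mice, so whether the 2 fractions of a mouse were both sequenced is not known here, and p-values measure the spread between libraries.

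Immediate-early genes are transcribed within minutes of a stimulus, without new protein synthesis, when MAP kinases and calcium signals activate factors such as SRF, ELK and CREB already bound near their starts. Heat-shock genes of the inducible HSP70 family are switched on by HSF1 when unfolded proteins accumulate. Both groups are also known to rise while solid tissue is taken apart with warm enzyme, so they are often read as a record of how cells were handled. For these libraries the ileum had been shaken at room temperature with EDTA and DTT, digested with collagenase in a shaking incubator at body temperature, stained and sorted, and part of the IECs had been returned to the lamina propria cells before sorting. No undissociated ileum is among the libraries, so the share of each level that arose during handling was not tested.

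The libraries held 6028275 to 76807504 counts on genes. Rbck1, which encodes HOIL1, was at 73.3 to 158 CPM (read counts scaled to a common library size by the TMM method) in Hoil1+/+ libraries, and the Hoil1-/- libraries lay below them all, at 0 to 15.9 CPM. Ptprc, which encodes CD45, was at 252 to 755 CPM in CD45+ and at 0 to 16.1 CPM in CD45- libraries. The epithelial gene Epcam was at 163 to 1271 CPM in CD45- and 7.01 to 68.8 CPM in CD45+ libraries, and the endothelial gene Pecam1 at 247 to 1619 and 44.5 to 117 CPM. The make-up of the CD45- libraries varied widely. The summed level of 12 enterocyte markers, all 12 of them detected, ran from 721 to 46020 CPM, and that of 12 endothelial markers from 1454 to 9167 CPM. The study left out 3 libraries, all Hoil1-/-, as outliers of a principal component analysis. They are a 9.0-week f/f and a 9.1-week ΔIEC library of CD45+ cells and a 9.9-week f/f library of CD45- cells. Tests were run on the other 21 libraries, while levels are given for all 24.

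The sequences just before the starts of these genes show what the members share and where they differ. RefSeq promoter sequences of GRCm38.p6 were at hand for 8 members, and none was printed for Ier2 and Egr1. The 250 bases before the start of 6 members follow, 5′ to 3′ on the strand of the gene, with capitals marking 5 motifs searched on both strands. The motif TGACG is the core of the cyclic AMP response element, and the full palindrome TGACGTCA overlaps it. The motif GAANNTTC is a pair of facing heat-shock element units. The TATA box was searched as TATAAA and the box bound by NF-Y as CCAAT. The first 4 belong to immediate-early genes whose levels are described below, and the last 2 to the heat-shock pair, which they show to be near copies.
Fos, chr12:85473640-85473889, plus strand: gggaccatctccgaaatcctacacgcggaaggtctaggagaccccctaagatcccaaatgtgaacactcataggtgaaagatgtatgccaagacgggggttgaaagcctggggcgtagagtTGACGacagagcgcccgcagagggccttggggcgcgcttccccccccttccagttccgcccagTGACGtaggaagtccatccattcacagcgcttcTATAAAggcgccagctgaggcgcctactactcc
Fosb, chr7:19310046-19310295, minus strand: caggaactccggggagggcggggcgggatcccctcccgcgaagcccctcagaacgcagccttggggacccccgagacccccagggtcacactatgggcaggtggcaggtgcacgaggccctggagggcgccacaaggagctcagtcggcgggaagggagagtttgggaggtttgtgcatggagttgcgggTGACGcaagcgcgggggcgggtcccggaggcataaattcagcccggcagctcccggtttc
Junb, chr8:84978749-84978998, minus strand: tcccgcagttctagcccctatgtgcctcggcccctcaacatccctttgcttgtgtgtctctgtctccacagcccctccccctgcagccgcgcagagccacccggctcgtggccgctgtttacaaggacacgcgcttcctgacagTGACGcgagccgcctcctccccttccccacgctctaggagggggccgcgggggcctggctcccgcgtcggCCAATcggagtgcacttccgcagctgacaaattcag
Dusp1, chr17:26508473-26508722, minus strand: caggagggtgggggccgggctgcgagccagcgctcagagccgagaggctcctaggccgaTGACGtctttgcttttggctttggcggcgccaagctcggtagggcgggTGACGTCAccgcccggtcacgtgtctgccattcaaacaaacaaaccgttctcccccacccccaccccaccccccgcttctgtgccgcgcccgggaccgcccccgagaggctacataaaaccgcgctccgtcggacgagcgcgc
Hspa1a, chr17:34972157-34972406, minus strand: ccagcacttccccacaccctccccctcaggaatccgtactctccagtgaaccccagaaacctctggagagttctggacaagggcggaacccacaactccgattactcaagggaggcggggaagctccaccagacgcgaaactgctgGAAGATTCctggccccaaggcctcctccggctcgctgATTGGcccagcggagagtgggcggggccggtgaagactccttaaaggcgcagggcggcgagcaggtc
Hspa1b, chr17:34959239-34959488, minus strand: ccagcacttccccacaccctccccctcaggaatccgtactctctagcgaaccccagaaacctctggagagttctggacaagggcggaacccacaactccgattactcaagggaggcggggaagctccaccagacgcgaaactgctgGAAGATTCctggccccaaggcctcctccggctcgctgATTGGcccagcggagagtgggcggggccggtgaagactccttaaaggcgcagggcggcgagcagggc

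TGACG stood in the window of 5 of the 8 members (Fos, Fosb, Junb, Atf3 and Dusp1) and of 17.9% of all 27025 promoters of the same length. It was added to the search after the sequences had been seen. The full TGACGTCA was found for Dusp1 alone among the 8 and in 1.62% of all promoters. TATAAA was found for Fos and in 13% of all promoters, with its first base at position -33, counted from -1 just before the start. GAANNTTC was found in Jun, Hspa1a and Hspa1b, against 6.78% of all promoters, and CCAAT in Jun, Junb, Hspa1a and Hspa1b, against 34.5%. The AP-1 site TGANTCA, in 6.87% of promoters, and the CArG box bound by SRF, in 1.40%, were found in none of the 8 windows. Sequence beyond the 250 bases was not searched, so sites farther from the start, and any of Egr1 and Ier2, are not covered. Hspa1a and Hspa1b were identical at 247 of the 250 positions. Their transcripts are alike as well. Of the windows of 150 bases, the read length, 38.1% in Hspa1a and 40.5% in Hspa1b occurred unchanged in the other transcript. A read that lies wholly in such a stretch matches both genes, and can be assigned only where its mate lies outside. How such pairs were counted is not given in the sources used here, so the separate levels of Hspa1a and Hspa1b are uncertain. Fos and Fosb, and Jun and Junb, shared no such window.

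All 10 members were well detected in both fractions. Levels are compared between genes as CPM per kilobase of exon (CPM/kb), with medians over the 12 libraries of a fraction. In CD45+ cells Junb, an AP-1 subunit that pairs with FOS proteins, stood first at 1136 CPM/kb (range 254 to 2272), followed by Fos at 521 CPM/kb (169 to 1614). Dusp1, a phosphatase that switches MAP kinases off, Egr1, a zinc finger transcription factor, Ier2, a small nuclear protein, and Jun, the main partner of FOS in AP-1, lay between 285 and 218 CPM/kb. Atf3, a stress-induced CREB-family factor, was at 120 CPM/kb and Fosb, a second FOS protein, at 118 CPM/kb. The HSP70 chaperone genes Hspa1a and Hspa1b were lowest, both near 23 CPM/kb. In CD45- cells Egr1 stood first at 553 CPM/kb (74.4 to 1380), before Junb at 374 CPM/kb and Fos at 338 CPM/kb, and the heat-shock pair was again last, at 38.8 CPM/kb for Hspa1b and 36.9 CPM/kb for Hspa1a. In both orders every gene overlapped its neighbour in range over the 12 libraries. In CD45+ cells the lowest Junb level, 254 CPM/kb, lay above the highest of Hspa1a, 79.4 CPM/kb. In CD45- cells even the first and last ranks overlapped, with Egr1 from 74.4 CPM/kb and Hspa1a up to 120 CPM/kb.

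The spread between libraries of a fraction was large. From the lowest to the highest of 12 libraries, Atf3 varied 37.5-fold, Fosb 25.8-fold and Dusp1 5.34-fold in CD45+ cells. In CD45- cells Fosb varied 29.7-fold, Egr1 18.6-fold, Dusp1 16.4-fold and Ier2 6.57-fold. Together the 10 genes took 0.157 to 2.18% of all gene counts of a CD45- library and 0.173 to 1.69% of a CD45+ library.

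**Figure D1:**
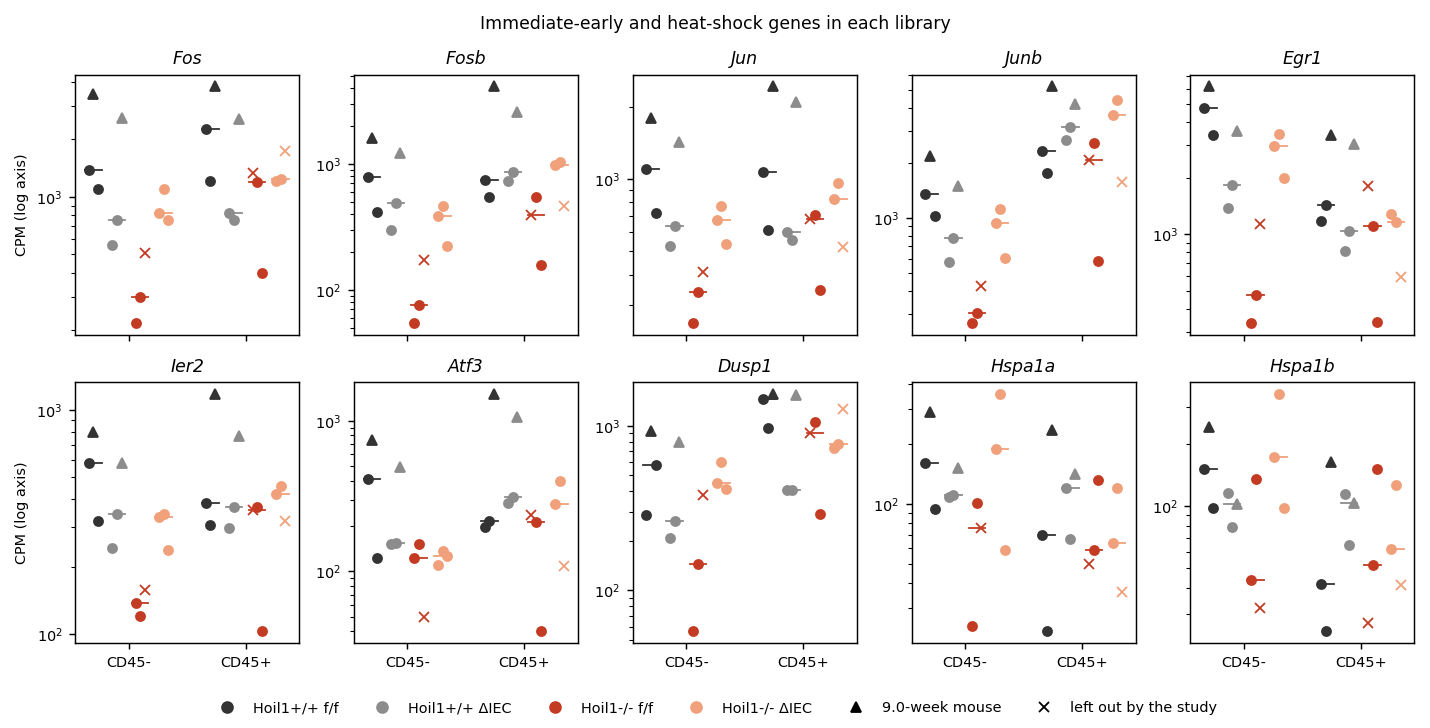
Level of each of the 10 members (CPM, log axis) in every library, by fraction and genotype, with a short line at the median of each group of 3. Triangles are libraries of 9.0-week-old mice and crosses the 3 libraries left out by the study. The 9.0-week Hoil1+/+ f/f library is the highest for the 8 immediate-early genes in both fractions.

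The same kinds of library stood at the extremes in both fractions. The 9.0-week Hoil1+/+ f/f library was the highest of its 12 for 8 of 8 immediate-early members in CD45+ cells and for 8 of 8 in CD45- cells. Its level of Fos, the founding immediate-early gene, was 3797 CPM in CD45+ and 3445 CPM in CD45- cells, and that of Atf3 1504 and 745 CPM. The 9.0-week Hoil1+/+ ΔIEC library was among the highest 2 for 7 of the 8 members in each fraction, with Fos at 2574 and 2587 CPM. The remaining 9.0-week library, from CD45+ cells of a Hoil1-/- f/f mouse and left out by the study, did not share this, with Fos at 1340 CPM and Atf3 at 237 CPM. At the other end, the 9.4-week Hoil1-/- f/f library of CD45+ cells was the lowest for 8 of 8 members, with Fos at 397 CPM and Atf3 at 40.1 CPM. In CD45- cells the pair of 9.4-week Hoil1-/- f/f libraries held the lowest level for 7 of 8 members, with Fos at 217 and 298 CPM. Atf3 was lowest in the 9.9-week Hoil1-/- f/f library, at 49.9 CPM.

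The heat-shock pair did not follow this order throughout. In CD45+ cells Hspa1a was highest, at 235 CPM, in the 9.0-week Hoil1+/+ f/f library, but it was at 131 CPM in the 9.4-week Hoil1-/- f/f library, where the immediate-early members were lowest. It was lowest in the 9.9-week Hoil1+/+ f/f library, at 23 CPM. In CD45- cells Hspa1a and Hspa1b were highest in a 9.6-week Hoil1-/- ΔIEC library, at 355 and 347 CPM, beside Fos at 1101 CPM, well below the 3445 CPM of the highest library.

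Across the 12 CD45- libraries the immediate-early members moved almost as a block. Pearson's r of log2(CPM + 1) with Fos was 0.988 for Jun, 0.973 for Junb, 0.969 for Fosb, 0.951 for Ier2, 0.931 for Egr1, 0.881 for Dusp1 and 0.738 for Atf3, against a median of 0.149 over 17210 other genes. Without the 2 libraries farthest from the median of Fos, r was still 0.974 for Jun and 0.665 for Atf3. Spearman's rho was 0.986 for Jun, Junb and Egr1 and 0.566 for Atf3. In CD45+ cells the block was looser. Dusp1 was closest to Fos (r = 0.934, rho = 0.909), and r stayed at 0.931 without the 2 farthest libraries. For Junb r was 0.645 and fell to -0.025 without them, for Atf3 it went from 0.729 to 0.195 and for Fosb from 0.770 to 0.327, so these relations rested on the extreme libraries. Hspa1a and Hspa1b followed each other in CD45+ (r = 0.925) and CD45- cells (r = 0.839), beside the shared reads named above. Against Fos, Hspa1a had r = 0.156 in CD45+ cells and 0.725 in CD45- cells, where it fell to 0.423 without the 2 farthest libraries. The points of each r share a fraction, a scaling and, for several libraries, an age and genotype, so the values are descriptions of these 12 libraries and not tests.

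In all, 8 sets of genotype and age occur in both fractions, 1 or 2 libraries per set and fraction, and their mean levels could be set side by side. For Fosb the 8 sets lay close to a line, with r = 0.986, rho = 0.952, and r = 0.961 without the 2 sets farthest from the median. The lowest set was the 9.4-week Hoil1-/- f/f set, with Fosb at 159 CPM in CD45+ and 64.3 CPM in CD45- cells. The highest was the 9.0-week Hoil1+/+ f/f set, at 4103 and 1613 CPM. For Fos r was 0.919, for Jun 0.957, for Dusp1 0.914, for Ier2 0.908, for Junb 0.851, for Egr1 0.848 and for Atf3 0.715. For the heat-shock genes r was lower, 0.578 for Hspa1a and 0.441 for Hspa1b, and for Hspa1a it was 0.023 without the 2 farthest sets. The median r over 16370 genes was 0.136. Whether the sets hold the same mice was not given in the labels, and genotype, age and any shared preparation cannot be told apart in them.

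**Figure D2:**
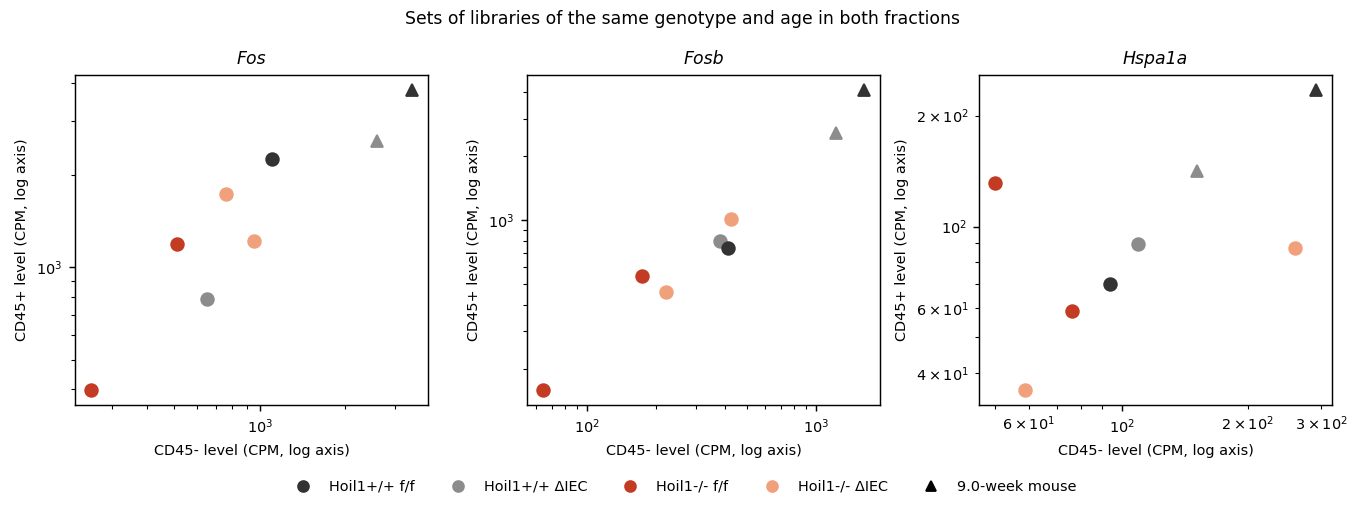
Mean level (CPM, log axes) of Fos, Fosb and Hspa1a in CD45+ against CD45- cells for the 8 sets of libraries of the same genotype and age, coloured by genotype, with triangles for 9.0-week mice. Fos and Fosb rise together across the sets, and Hspa1a is scattered.

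Junb, Fosb and Dusp1 were higher in CD45+ than in CD45- cells. When libraries of the same genotype and age were compared with each other, Fos and Atf3 also passed as higher and Egr1 as lower. The first test was edgeR's quasi-likelihood test over the 21 libraries, with 18778 genes and Benjamini-Hochberg adjustment. By this test 3 of 10 members were higher in CD45+ cells, where 24.5% of all genes tested were higher, and 0 of 10 were lower, where 25.1% of all genes were. The count of 3 is therefore near the share of all genes. Junb was at 584, 2900 and 5227 CPM (lowest, median and highest of 10) in CD45+ cells and at 266, 942 and 2189 CPM (of 11) in CD45- cells. Of the 10 CD45+ libraries, 8 lay above every CD45- library. Its log2 fold change was 1.87 (SE 0.29, adjusted p = 4.83e-05 by edgeR). Fosb was at 159, 801 and 4103 CPM in CD45+ and at 54.3, 412 and 1613 CPM in CD45- cells, with a log2 fold change of 1.48 (SE 0.42, adjusted p = 0.00769 by edgeR). Dusp1 was at 292, 875 and 1561 CPM and at 56.4, 413 and 926 CPM, with a log2 fold change of 1.36 (SE 0.35, adjusted p = 0.00395 by edgeR). Both genes overlapped between the fractions. A permutation test over libraries of mean log2(CPM + 1), two-sided with 100000 resamples and unadjusted, gave p = 0.00058 for Junb, 0.0112 for Dusp1 and 0.0536 for Fosb, so Fosb did not pass by that test, which does not take genotype or age into account.

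The other 7 members did not pass this test over independent libraries. Fos had a log2 fold change of 0.61 (SE 0.35), Atf3 0.74 (SE 0.46), Ier2 0.46 (SE 0.30) and Jun 0.45 (SE 0.31). Egr1 was at 339, 1169 and 3406 CPM in CD45+ and at 334, 2954 and 6189 CPM in CD45- cells, with a log2 fold change of -0.52 (SE 0.31, adjusted p = 0.183 by edgeR). Hspa1a (-0.36, SE 0.41) and Hspa1b (-0.52, SE 0.36) also had the opposite sign to most members. Levels moved together between the fractions across genotype and age, as described above, and a fit with these sets as a block, chosen after the values were seen, called 6 members. By it 5 members were higher (19.9% of all genes were) and 1 lower (22.2% of all genes). The log2 fold changes were 1.53 for Junb, 1.17 for Fosb (adjusted p = 0.000117 by edgeR), 0.99 for Dusp1, 0.43 for Fos (adjusted p = 0.0348 by edgeR) and 0.39 for Atf3 (adjusted p = 0.031 by edgeR). Egr1 was lower, at -0.86 (SE 0.15, adjusted p = 0.00101 by edgeR). The block fit used the 21 libraries, in which the 9.9-week Hoil1-/- f/f and 9.1-week Hoil1-/- ΔIEC sets kept only 1 fraction. Those sets gave it no comparison of fractions. Its Hoil1-/- f/f part rested on 1 CD45+ library, of 9.4 weeks. There Atf3 was lower than in the CD45- libraries of its set (40.1 against 137 CPM). In the set means over all 24 libraries Junb, Fosb and Dusp1 were higher in CD45+ cells in 8 of 8 sets, Fos in 7 of 8 and Atf3 in 6 of 8, and Egr1 was lower in 8 of 8. Leaving out 1 library added a call in 3 cases, each with a 9.0-week library. Fos was added without the CD45- Hoil1+/+ ΔIEC library, Egr1 without the CD45+ Hoil1+/+ ΔIEC library and Hspa1b (-0.81) without the CD45+ Hoil1+/+ f/f library. When the libraries of 9.0-week mice were left out, which was chosen after the values were seen, 5 members passed. Of these, 4 were higher, where 4389 of 18232 genes were, and 1 was lower, where 4273 genes were. Fos was added as higher (log2 fold change 0.71) and Egr1 as lower (-0.69, adjusted p = 0.0261 by edgeR) in CD45+ cells. In such bulk samples, fewer cells of a type and less RNA per cell cannot be told apart. The fractions hold different cell types, and fraction and cell type cannot be told apart.

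**Figure D3:**
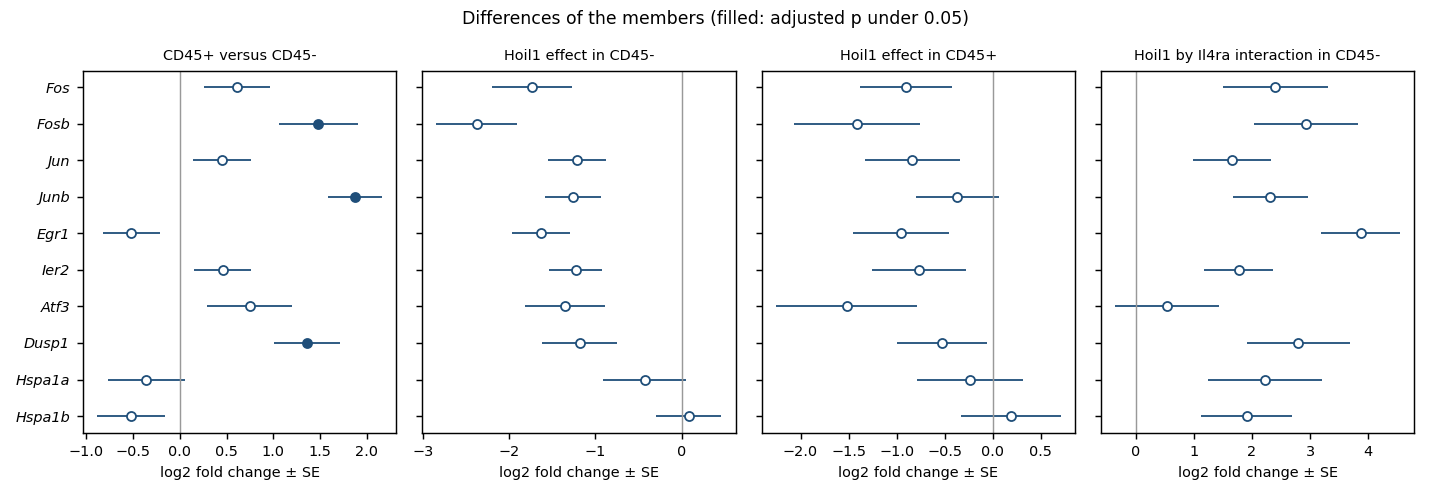
Log2 fold change ± SE of each member in 4 contrasts of edgeR's quasi-likelihood test, with filled circles where the adjusted p was under 0.05. Junb, Fosb and Dusp1 are filled for CD45+ versus CD45-, and no circle is filled in the other 3 panels.

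In CD45- cells of f/f mice most immediate-early members stood lower in every Hoil1-/- library than in any Hoil1+/+ library. Egr1 was at 4752, 6189 and 3396 CPM in the 3 Hoil1+/+ f/f libraries and at 334, 471 and 1134 CPM in the 3 Hoil1-/- f/f libraries, without overlap. Fos was at 1385, 3445 and 1104 CPM against 217, 298 and 510 CPM. Fosb was at 789, 1613 and 412 CPM against 54.3, 76.1 and 174 CPM. Jun, Junb and Ier2 also did not overlap, so this held for 6 of the 10 members, with all libraries below in Hoil1-/- mice, against 9.92% of 17903 genes. For Dusp1 the ranges overlapped, at 289, 926 and 582 CPM against 56.4, 144 and 380 CPM, as did those of Atf3, Hspa1a and Hspa1b. The Hoil1+/+ f/f mice were 10.3, 9.0 and 9.1 weeks old and the Hoil1-/- f/f mice 9.4, 9.4 and 9.9 weeks. Hoil1 genotype, age and any shared preparation therefore cannot be told apart in these libraries.

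In ΔIEC mice the Hoil1 genotypes were much closer. Egr1 was at 1391, 1845 and 3563 CPM in Hoil1+/+ ΔIEC and at 2954, 3447 and 2005 CPM in Hoil1-/- ΔIEC libraries, and Fos at 558, 756 and 2587 CPM and at 828, 1101 and 761 CPM. Both pairs overlapped. Atf3 was the only member with all 3 Hoil1-/- libraries lower, at 110, 138 and 127 CPM against 152, 154 and 494 CPM. How many of all genes separate in this way in ΔIEC libraries was not counted, so this is not read as a trait of Atf3.

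Averaged over both Il4ra genotypes, no member passed the adjusted threshold for Hoil1 in CD45- cells by edgeR's quasi-likelihood test, and nearly no gene did, with 3 of 16453 (0.0182%). At an unadjusted p below 0.05, 8 of 10 members, all 8 immediate-early ones, were lower in Hoil1-/- libraries, where 3.66% of all genes were. Fosb had a log2 fold change of -2.37 (SE 0.47, adjusted p = 0.285 by edgeR), Fos -1.73 (SE 0.46, adjusted p = 0.550), Egr1 -1.63 (SE 0.33, adjusted p = 0.297) and Atf3 -1.35 (SE 0.46, adjusted p = 0.846). Junb (-1.26, SE 0.32), Ier2 (-1.23, SE 0.30), Jun (-1.21, SE 0.34) and Dusp1 (-1.18, SE 0.44) followed. Hspa1a (-0.43, SE 0.48) and Hspa1b (0.08, SE 0.38) did not reach the unadjusted threshold. The call depended on the tool. DESeq2 called 6 members lower, Fosb and Egr1 among them, and 0.79% of all genes, and edgeR's likelihood ratio test 4 members and 0.59% of all genes. An exact permutation test over the 5 Hoil1-/- and 6 Hoil1+/+ libraries, two-sided, gave p = 0.026 for Fosb and 0.039 for Atf3, unadjusted, and 0.0519 for Ier2, 0.0823 for Fos and 0.13 for Egr1. The smallest p this design allows is 0.0043. In CD45- cells the Hoil1 genotypes shared no age within f/f or within ΔIEC mice, and the 9.0-week libraries were all Hoil1+/+. Hoil1 genotype thus cannot be fully told apart from age or preparation in this test. Without the libraries of 9.0-week mice the median log2 fold change of the 10 members went from -1.24 to -0.79. Fos, Fosb, Jun, Junb, Egr1 and Ier2, but not Atf3 and Dusp1, were then lower at an unadjusted p below 0.05. Of all 15620 genes in that fit, 418 were.

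Cell make-up moved with these levels. The 2 Hoil1-/- f/f libraries in the test had summed enterocyte markers of 37540 and 27300 CPM, against 15510, 1736 and 2398 CPM in the Hoil1+/+ f/f libraries. In the 12 CD45- libraries r of Fos with the enterocyte sum on the log scale was -0.572 (rho = -0.503), and with the endothelial sum 0.665 (rho = 0.524). It was -0.783 with the immunoglobulin share of counts (rho = -0.692), -0.738 with the B cell marker sum (rho = -0.650) and -0.655 with the goblet cell marker sum (rho = -0.685). With the enterocyte sum added to the fit, which was chosen after the values were seen, Fosb (-2.27, adjusted p = 0.0425 by edgeR) and Egr1 (-1.59, adjusted p = 0.0365 by edgeR) passed. Of all 16453 genes, 4 were lower and 6 higher in that fit. The 9.9-week Hoil1-/- f/f library, left out by the study, had an enterocyte sum of 2272 CPM, with Egr1 at 1134 CPM. The Hoil1+/+ ΔIEC libraries had enterocyte sums of 42770, 46020 and 2916 CPM, with Egr1 at 1391, 1845 and 3563 CPM. The part of the goblet cell, B cell and endothelial markers and of the immunoglobulin share in the Hoil1 values was not tested.

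**Figure D4:**
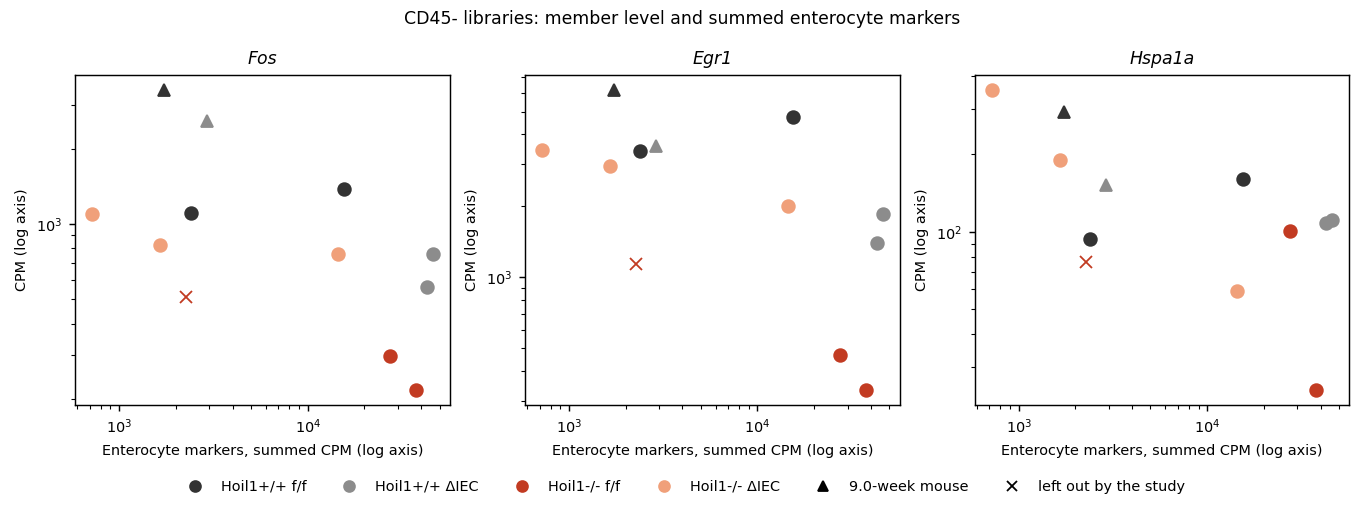
Level of Fos, Egr1 and Hspa1a (CPM, log axis) against the summed CPM of 12 enterocyte markers (log axis) in the 12 CD45- libraries, coloured by genotype, with triangles for 9.0-week mice and a cross for the library left out by the study. The Hoil1-/- f/f libraries, at sums of 37540, 27300 and 2272 CPM, had Fos at 217, 298 and 510 CPM and Egr1 at 334, 471 and 1134 CPM. The last of these is the library left out by the study. The Hoil1+/+ ΔIEC libraries, at sums of 42770, 46020 and 2916 CPM, had Fos at 558, 756 and 2587 CPM and Egr1 at 1391, 1845 and 3563 CPM.

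For most members the Hoil1 effect in CD45- cells was below 0 in f/f mice and nearer 0 or above it in ΔIEC mice, but no test of that difference passed the adjusted threshold by edgeR's quasi-likelihood test. The interaction, the Hoil1 effect in ΔIEC mice minus that in f/f mice, was 3.87 on the log2 scale for Egr1 (SE 0.68, adjusted p = 0.106 by edgeR), 2.92 for Fosb (SE 0.90, adjusted p = 0.145), 2.80 for Dusp1 (SE 0.88), 2.40 for Fos (SE 0.90) and 2.31 for Junb (SE 0.65). For Hspa1a it was 2.22 (SE 0.98) and for Hspa1b 1.91 (SE 0.78). Among all genes 0% passed. At an unadjusted p below 0.05 the interaction was above 0 for 9 of 10 members, all but Atf3, where 11.3% of all genes were. DESeq2 called 6 of 10 members, Egr1, Fosb, Junb, Dusp1, Fos and Ier2, and 4.17% of all genes. Leaving out the 9.0-week Hoil1+/+ ΔIEC library brought 7 members past the threshold of edgeR, all above 0. Of 16019 genes, 561 passed above 0 and 638 below 0 in that fit. With the enterocyte sum in the fit the interaction for Egr1 was 2.93, and that for Fos went from 2.40 to 0.99, and Junb and Egr1 alone had an unadjusted p below 0.05. Of all 16453 genes, 572 lay above 0 and 439 below 0 at that threshold. The part of cell make-up in the interaction was not tested beyond this fit.

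In CD45+ cells no member passed for Hoil1. The test covered 17029 genes, of which 1 passed (0.00587%), and 0 of 10 members reached an unadjusted p below 0.05 by edgeR, while DESeq2 called 0 with 2 below that unadjusted threshold. Without the 9.9-week Hoil1+/+ f/f library 3 members, Fos, Fosb and Atf3, were lower at an unadjusted p below 0.05, where 610 of 16722 genes were. None of them passed the adjusted threshold. In the test of all 10 libraries the fold changes of the immediate-early members were negative, from -0.37 for Junb (SE 0.43) to -1.52 for Atf3 (SE 0.74), with Fosb at -1.41 (SE 0.66). The median of the 10 members was -0.80 beside -0.05 for all genes. Without the 9.9-week Hoil1-/- f/f library the median of the members was -1.26. That leaves 1 library in its group, the lowest of the fraction for 8 of 8 immediate-early members. Without the libraries of 9.0-week mice that median was -0.06. Fosb was at 739, 549 and 4103 CPM in Hoil1+/+ f/f and at 395, 549 and 159 CPM in Hoil1-/- f/f libraries, so that the lowest Hoil1+/+ and the highest Hoil1-/- library lay within 1 CPM of each other. The T cell marker sum, over 8 genes that were all detected, ran from 530 to 3237 CPM in Hoil1+/+ and from 525 to 1431 CPM in Hoil1-/- libraries of CD45+ cells. Its r with Fos over the 12 libraries was -0.686 (rho = -0.839), and its part in these values was not tested. For the test of the difference between the Hoil1 effects in CD45+ and CD45- cells, 0 of 10 members passed (0.0266% of all genes did), none at an unadjusted p below 0.05 by edgeR and 0 by DESeq2. The difference was 0.85 for Fos (SE 0.70) and 0.98 for Fosb (SE 0.84). With sets of genotype and age as a block it was 0.10 for Fos (SE 0.29) and 0.20 for Fosb (SE 0.29), 0 members passed, and Atf3 had the lowest adjusted p, 0.292 by edgeR, at -1.08. The Hoil1-/- f/f part of that fit rested on 1 CD45+ library, as described above.

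Deletion of Il4ra in IECs gave no call for any member in either fraction. By edgeR's quasi-likelihood test 0 of 10 members passed in CD45+ cells (0.00587% of all genes) and 0 of 10 in CD45- cells (0% of all genes), with 0 and 2 members at an unadjusted p below 0.05 and 0 by DESeq2 in each. The 2 were Egr1, with a log2 fold change of 0.86 (SE 0.33, adjusted p = 0.808 by edgeR), and Fosb, with 0.98 (SE 0.44, adjusted p = 0.808 by edgeR), both in CD45- cells. Of all genes, 3.87% were higher there at that unadjusted threshold. In CD45+ cells the log2 fold changes lay between -0.30 for Dusp1 and 0.74 for Junb, each within 2 SE of 0. The difference of the Il4ra effects between fractions passed for 0 of 10 members (0.00533% of all genes), with 0 at an unadjusted p below 0.05 and 0 by DESeq2. With sets as a block 0 passed as well, and Atf3 was nearest, at 1.70 (adjusted p = 0.0696 by edgeR), again with 1 CD45+ library behind the Hoil1-/- f/f part. The Hoil1 by Il4ra interaction in CD45+ cells likewise passed for 0 of 10 (0% of all genes), with 0 at an unadjusted p below 0.05 and 0 by DESeq2. Without the 9.0-week Hoil1+/+ ΔIEC library 3 members had an unadjusted p below 0.05, all above 0, where 858 of 16791 genes were. The median interaction of the members over all libraries of the test was 1.17. Without the 9.9-week Hoil1-/- f/f library, which leaves its group without a replicate, that median was 2.30.

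Related genes, from lists written down from general knowledge, moved with the members in part. Among 36 other immediate-early genes, all of them tested, 19 were higher and 5 lower in CD45+ than in CD45- cells, beside 24.5% and 25.1% of all genes, with a median log2 fold change of 0.95 beside 0.03 for all genes. Mcl1, a survival protein, was at 846 ± 220 CPM (SD, n = 10) in CD45+ and 295 ± 30.2 CPM (SD, n = 11) in CD45- libraries, which passed with an adjusted p of 3.81e-07 by edgeR. The phosphatase genes Dusp5 (3.13) and Dusp2 (2.65) and the immediate-early gene Ier5 (1.65) were higher as well, as log2 fold changes. Lower were Ccn2 (-6.12) and Ccn1 (-4.64), matricellular proteins, the epithelial transcription factor Klf4 (-2.68) and the kinase Sgk1 (-2.32), all of which are known from epithelial, endothelial or stromal cells. None of the 36 passed for Hoil1 in CD45- cells, while 18 were lower and 0 higher at an unadjusted p below 0.05, where 3.66% of all genes were lower, with a median log2 fold change of -0.89 beside -0.08 for all genes. In CD45+ cells 0 of 36 were lower at that threshold. For Il4ra deletion 0 of 36 passed in either fraction, with 11 higher in CD45+ cells (5.24% of all genes) and 4 higher in CD45- cells (3.87% of all genes) at an unadjusted p below 0.05.

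Of 24 other heat-shock genes, 4 were higher and 8 lower in CD45+ cells, near the shares of all genes (24.5% and 25.1%). The higher ones were the endoplasmic reticulum chaperones Hspa5 (log2 fold change 1.16) and Hsp90b1 (1.13), with Chordc1 (0.77) and Hspa4 (0.38). Among the lower ones were the small heat-shock genes Hspb1 (-6.62) and Cryab (-3.65) and the co-chaperones Bag3 (-1.48) and Fkbp4 (-1.38). For Hoil1 in CD45- cells 0 of 24 passed, with 1 lower at an unadjusted p below 0.05 and a median of -0.07, close to that of all genes. For the interaction in CD45- cells 10 of 24 were above 0 at an unadjusted p below 0.05, where 11.3% of all genes were, and none passed the adjusted threshold. Of 15 genes for upstream kinases and transcription factors, 4 were higher in CD45+ cells, Mrtfa (1.54), Mapk14 (1.19), Creb1 (0.77) and Map2k1 (0.67), and 3 lower, Mapk3 (-1.86), Elk3 (-0.90) and Map2k3 (-0.85), again near the shares of all genes.

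The gene closest in pattern to the mean profile of the 8 immediate-early members over 12 libraries was Zfp36, which encodes an RNA-binding protein that destabilises cytokine mRNA, in both fractions (r = 0.973 in CD45+ and 0.992 in CD45- cells). It ranged from 529 to 6529 CPM in CD45+ and from 277 to 4192 CPM in CD45- cells. In CD45+ cells the transcription factors Klf6 (r = 0.971) and Cebpb (r = 0.958) followed, and in CD45- cells the nuclear factor kappa B regulator Nfkbiz (r = 0.957) was also among the closest. For the heat-shock pair, the closest genes in CD45- cells were Daxx (r = 0.943), Elfn1 (r = 0.937) and Ctdsp1 (r = 0.924). In CD45+ cells they were Podn, Bvht and Gm15821 (r = 0.880, 0.877 and 0.871), whose medians were 0 to 0.341 CPM, near the level of single counts.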

How the data were processed

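RNA from 24 libraries had been poly-A selected and sequenced. The authors aligned the reads to mm10 (GRCm38) with STAR, per the labels, and counted them on genes with featureCounts, and the deposited values are raw counts without normalization. Versions and the treatment of reads matching several genes are not given in the sources used here. Names and positions came from GENCODE M21, where 38872 of 39056 identifiers matched without their version.

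From the counts, edgeR 4.0.16 (R 4.3.3) fitted TMM-scaled quasi-likelihood models after its filter (minimum count 10, minimum total 15), two-sided, with Benjamini-Hochberg adjustment at 0.05. The 21 libraries that the study kept entered 1 fit for fraction contrasts, and the 10 CD45+ and 11 CD45- libraries separate fits for genotype contrasts. The scripts were tested on simulated data. CPM were TMM-scaled over all 24 libraries, and logs used a pseudocount of 1 CPM. Permutation tests used scipy 1.17.1. The alternatives were DESeq2 1.42.0, the likelihood ratio test, RLE factors, no filter, all libraries, age as covariate, no immunoglobulin genes and leaving out each library, with 3 added after the values were seen (no 9.0-week libraries, enterocyte markers as covariate, sets of genotype and age as block). The members and gene lists were chosen with earlier results of these data known. The genes named are the members, checks of genotype and sort, up to 4 genes per direction with the smallest adjusted p in each related list, and the 3 of most like pattern, of which 1 is not reported here.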

Additional observations from a re-analysis of the deposited data

Results flagged for a closer look

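Each member was examined for a library standing far from the rest among the libraries kept by the study of 1 fraction and Hoil1 genotype, 40 groups of 4 to 6 libraries in all. By chance about 1 in 20 groups would show such a library. In CD45+ Hoil1-/- libraries (n = 4), Fos was at 397 CPM in the 9.4-week f/f library, below the next lowest at 1194 CPM. In CD45- Hoil1+/+ libraries (n = 6), Hspa1a was at 291 CPM in the 9.0-week f/f library, above the next highest at 160 CPM. The tests of a difference in the Hoil1 or Il4ra effect between fractions, and of the Hoil1 effect between Il4ra genotypes, called 0 members at an adjusted p under 0.05 by edgeR's quasi-likelihood test, with the counts by unadjusted p and by DESeq2 given above.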

How the results depend on the processing

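By replicate number no paired analysis was possible because these numbers were given in accession order and mark no shared mouse. Sets of genotype and age served as a block instead. The 3 members called between the fractions became 6 with that block, 5 without the 9.0-week libraries, and 3 to 4 when each library was left out. For Hoil1 in CD45- cells, where edgeR's quasi-likelihood test called 0 members, DESeq2 called 6, the likelihood ratio test 4 and the fit with enterocyte markers 2, and leaving out each library called 0. Among all 16453 genes the fit with enterocyte markers called 4 lower and 6 higher. For the interaction in CD45- cells the count of 0 became 6 with DESeq2 and 4 with the likelihood ratio test. It ran from 0 to 7 when each library was left out, with 7 without the 9.0-week Hoil1+/+ ΔIEC library. Of all genes, 587 of 16453 passed above 0 by the likelihood ratio test and 561 of 16019 without that library. The other counts were 0 under every setting run. DESeq2 moved the median log2 fold change of all genes between fractions from 0.03 to -0.08.

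Signs turned for these values, as log2 fold changes. For Hspa1a, Hoil1 in CD45+ cells (-0.24) was 0.41 with age as covariate, 0.49 without the 9.0-week libraries, 0.01 as the difference in mean log2(CPM + 1), and -0.58 to 0.37 with each library left out. For Hspa1b it was -0.14 over all libraries and -0.29 to 0.78 with each left out, and in CD45- cells -0.083 over all libraries and -0.41 to 0.38. Without the 9.0-week libraries the Hoil1 effect in CD45+ cells was 0.011 for Dusp1 and 0.035 for Junb. The Atf3 interaction in CD45- cells (0.53) was -0.31 with enterocyte markers and -0.13 to 1.315 with each library left out. The causes were not tested. Of the other alternative values of single members from model fits, 828 kept direction and side of the adjusted threshold and 37 came to pass it. Of the permutation tests, held to the unadjusted threshold in both tests, 22 kept their side and 7 no longer passed. The smallest CD45- library held 6028275 counts, and groups of 2 or 3 libraries limit what could be detected.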
